A study of Mus musculus with 12 samples.

Results

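The colony-stimulating factors and their receptors were followed here as 7 genes, taken by symbol from a table that held 5545 complete gene rows. The ligands were Csf1 (M-CSF), Csf2 (GM-CSF) and Csf3 (G-CSF). The receptors were Csf2ra, Csf2rb and Csf2rb2, which encode chains of the receptors for GM-CSF and related cytokines, and Csf3r, the receptor for G-CSF. Csf1r, the receptor for M-CSF, was not among the 7 genes. NK cells and type 1 innate lymphoid cells (ILC1) had been sorted from the livers of 6 female C57BL/6 mice (C57BL/6J bred in house, per the study's methods), so that each mouse gave 1 library of each cell type. After weaning, 3 lean mice were fed standard RM1 chow and 3 obese mice an obesogenic diet ("45% AFE fat") with condensed milk, in both cases for 12 weeks. Both cell types were lineage-negative and NK1.1+; NK cells were CD49a- CD49b+ and ILC1 were CD49a+ CD49b-. The 4 groups, each of 3 libraries, are named by diet and cell type, and each mouse by its diet and its number (25, 26 or 27), since the numbers recur in both diets for different animals.

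Colony-stimulating factors are secreted proteins that drive myeloid progenitors to divide and mature. M-CSF sustains monocytes and macrophages, including the Kupffer cells of the liver, while GM-CSF acts on macrophages, dendritic cells and granulocytes and G-CSF on neutrophils. Activated lymphocytes, among them NK cells and ILCs, can secrete GM-CSF, whereas the receptors are found mainly on myeloid cells. The GM-CSF receptor joins an alpha chain (Csf2ra), which binds the ligand, to a shared beta chain (Csf2rb) that passes the signal on through JAK2 and STAT5. Mice carry a second beta chain gene, Csf2rb2, whose product works with the IL-3 receptor.

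The libraries held between 1666637 and 2826766 counts over the rows used, so that a floor of 3 counts stood for 1.06 to 1.80 CPM (counts scaled to a common library size). Values are given as counts of reads, or as normalized counts, in which the authors had divided each library by a factor of between 0.57 and 1.52 for its depth and composition and rounded the quotient. The sort labels were checked with the few defining genes the rows held. Cxcr6 and Cd200r1, which mark ILC1, together took 1.11 to 1.43% of counts in lean ILC1 and 0.222 to 1.16% in obese ILC1, against at most 0.0391% in any NK library. Cx3cr1 and Cmklr1, which mark NK cells, took 0.0510 to 0.116% in NK cells and 0.00194 to 0.0231% in lean ILC1. In ILC1 of obese mice 25 and 27 they took 0.000240 and 0.0176%, but 0.0980% in ILC1 of obese mouse 26. There, 1773 counts were Cx3cr1 and 24 were Cmklr1. The library of ILC1 from obese mouse 26 stood apart from all others, as set out with the receptors. Leaving out 1 mouse's library or the 3 libraries that most often held the highest value of a gene (lean NK 27, obese ILC1 25 and obese ILC1 26) was therefore tried. This was done for the members' fold changes and for the numbers of genes called. Results for the wider gene lists, and the ranking of genes most like each member, rest on all libraries. In sorted bulk samples, fewer cells that express a gene and less of its RNA per cell cannot be told apart.

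Csf2 was the member called between the sorted cell types by the main test. It was higher in ILC1 than in NK cells, with a fitted log2 fold change of 2.92 (SE 0.71, edgeR's quasi-likelihood test, adjusted p = 0.0364 over the 2606 genes tested). A gene was called where the adjusted p was below 0.05 and the fold change above 2. The 4 members that passed the filter on low counts were Csf1, Csf2, Csf2ra and Csf2rb, and Csf2 was the only 1 of them called in this comparison, against 4.34% of all genes called in either direction and 3.15% called higher in ILC1. The same fit with the mouse as a block gave 2.61 (SE 0.88) with an adjusted p of 0.273, so the call did not hold when each ILC1 library was set against NK cells of its own mouse; 1.77% of all genes were called in that fit. DESeq2 gave 2.93 (SE 0.58, adjusted p = 1.23e-05).

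The Csf2 gene lies on chromosome 11 of GRCm38, chr11:54247271-54249667, on the minus strand. In lean NK cells its counts were 15, 10 and 16 in mice 25, 26 and 27, which were 14, 10 and 15 normalized counts. Lean ILC1 of the same mice held 69, 58 and 58 counts, or 71, 57 and 60 normalized counts. Every lean ILC1 library therefore lay above every lean NK library, as did 13.6% of the genes tested, and the group means were 62.7 ± 7.37 and 13.0 ± 2.65 normalized counts (SD, n = 3 each; exact permutation test, two-sided, p = 0.1, which 3 against 3 cannot go below). In obese NK cells the counts were 23, 12 and 12, which were 18, 8 and 9 normalized counts. Obese ILC1 held 115, 10 and 377 counts, or 141, 18 and 267 normalized counts. ILC1 of obese mouse 26 were level with the highest obese NK library, so these groups met at 18 normalized counts, and their means were 142 ± 125 and 11.7 ± 5.51 (SD, n = 3 each; exact permutation test, two-sided, p = 0.2). Libraries of ILC1 from obese mice 25 and 27 stood above all lean ILC1 libraries, and ILC1 of obese mouse 26 below them.

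**Figure D1:**
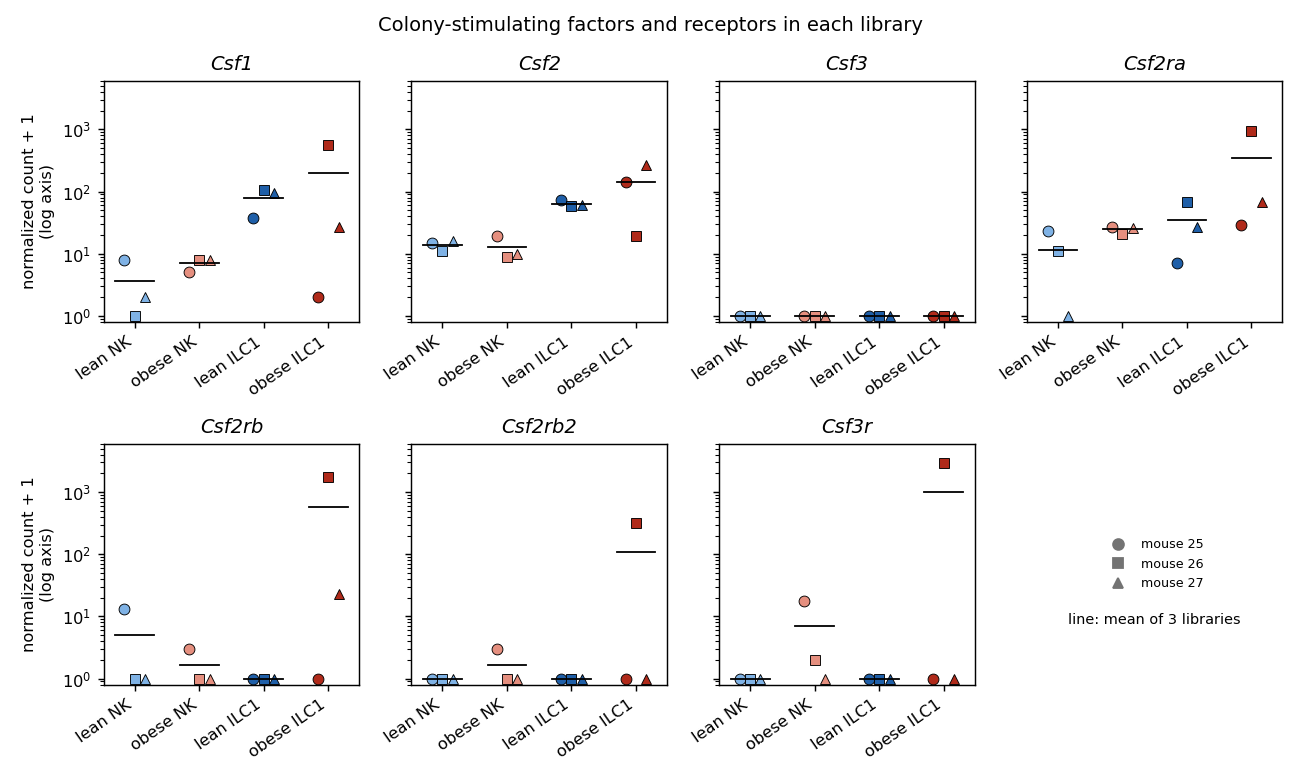
Normalized count plus 1 (log axis) of each of the 7 genes in the 12 libraries, by group; symbols mark the mouse number and lines the mean of 3 libraries. Csf2 was at 57 or more in all ILC1 libraries except that of obese mouse 26 (18) and at 18 or less in all NK libraries, Csf3 was at 0 throughout, and Csf2rb, Csf2rb2 and Csf3r were high in ILC1 of obese mouse 26.

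Within a mouse, Csf2 was higher in ILC1 than in NK cells in 6 of 6 mice, a pattern held by 5.91% of the genes tested. Scaled by the authors' factors, the ratio of ILC1 to NK was 5.12 in lean mouse 25 (95% exact interval 2.90 to 9.64, counting error only), 5.56 in lean mouse 26 (2.82 to 12.2) and 3.90 in lean mouse 27 (2.21 to 7.27). It was 7.75 in obese mouse 25 (4.92 to 12.7), 2.22 in obese mouse 26 (0.858 to 5.60) and 30.0 in obese mouse 27 (16.9 to 58.5). The 3 lean mice thus lay close together, within each other's intervals, while the obese mice ranged from a ratio whose interval includes 1 to the highest of all. The plot of NK cells and ILC1 by mouse shows all 6 lines for Csf2 rising.

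**Figure D2:**
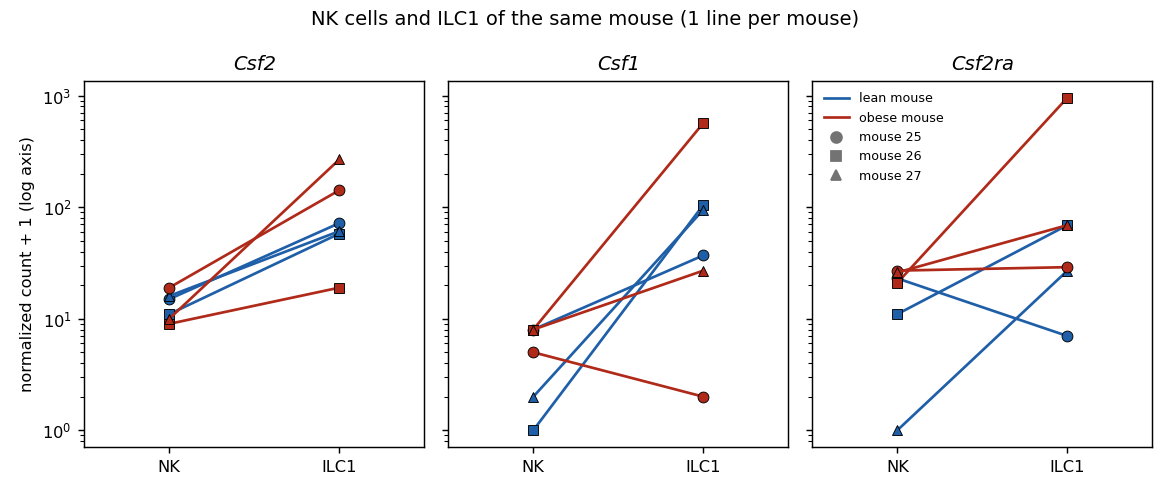
Normalized count plus 1 (log axis) of Csf2, Csf1 and Csf2ra in NK cells and ILC1 of the same mouse; each line is 1 of 6 mice, blue for lean and red for obese. Csf2 was higher in ILC1 in 6 of 6 mice, Csf1 in 5 of 6 and Csf2ra in 5 of 6.

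Taken diet by diet, the log2 fold change of Csf2 between ILC1 and NK cells was 2.26 (SE 0.98, adjusted p = 0.356) in lean mice and 3.57 (SE 1.03, adjusted p = 0.139) in obese mice. Neither was called by edgeR, where 2.30% and 0.921% of all genes were. None of the 4 tested members was called in either diet. By edgeR's test, 2 of 4 were below an unadjusted p of 0.05 in lean mice and 4 of 4 in obese mice. Of the 2606 genes tested, 346 and 369 were below it. In obese mice Csf1, Csf2ra and Csf2rb each had their highest value in ILC1 of mouse 26. DESeq2 called 1 member in lean mice (Csf1) and 2 in obese mice (Csf1 and Csf2), against 5.55% and 5.99% of all genes. Without ILC1 of obese mouse 26, Csf2 was called in obese mice at a log2 fold change of 4.08 (SE 0.92, adjusted p = 0.0480), where 1.89% of all genes were called.

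The pooled difference of Csf2 between ILC1 and NK cells kept its sign in all 20 alternatives, with log2 fold changes from 2.48 to 3.42, but its adjusted p ranged from 1.23e-05 to 0.273. The call was lost in 10 of 12 fits that each left out 1 library (adjusted p up to 0.148), those without any of the 6 NK libraries, any of the 3 lean ILC1 libraries or ILC1 of obese mouse 27. It was kept without ILC1 of obese mouse 25 (adjusted p = 0.0337) or 26 (0.00990), and without the 3 libraries that stood apart (3.42, SE 0.47, adjusted p = 0.000543); these fits called 5.73%, 4.63% and 8.31% of all genes. Transcripts of some T cell genes, chiefly Cd3g, were higher in ILC1 as well. The 9 genes of a T cell list took 0.0485 to 0.103% of counts in lean NK, 0.0809 to 0.116% in obese NK, 0.809 to 0.950% in lean ILC1 and 0.268 to 0.771% in obese ILC1. Of its 7 tested genes, 3 (Cd3d, Cd3e and Cd3g) were called higher in ILC1, against 3.15% of all genes. Cd3g was at 13041 ± 605 normalized counts in lean ILC1 and 184 ± 56.8 in lean NK (SD, n = 3 each). Cd28 was level, at 1002 ± 95.9 and 1075 ± 405. Cd4, Cd5 and Cd6 were also higher in lean ILC1 on average, but were not called. They were at 85.0 ± 94.7, 98.7 ± 69.6 and 152 ± 207 in lean ILC1. In lean NK they were at 2.67 ± 4.62, 4.33 ± 3.79 and 3.33 ± 5.77. Cd8a and Cd8b1 were at 0 in all 3 lean ILC1 libraries, but reached 201 and 448 counts in obese ILC1. The lineage stain that sorted cells had to lack included CD3 and CD8α. The part of these transcripts in the Csf2 difference was not tested.

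**Figure D3:**
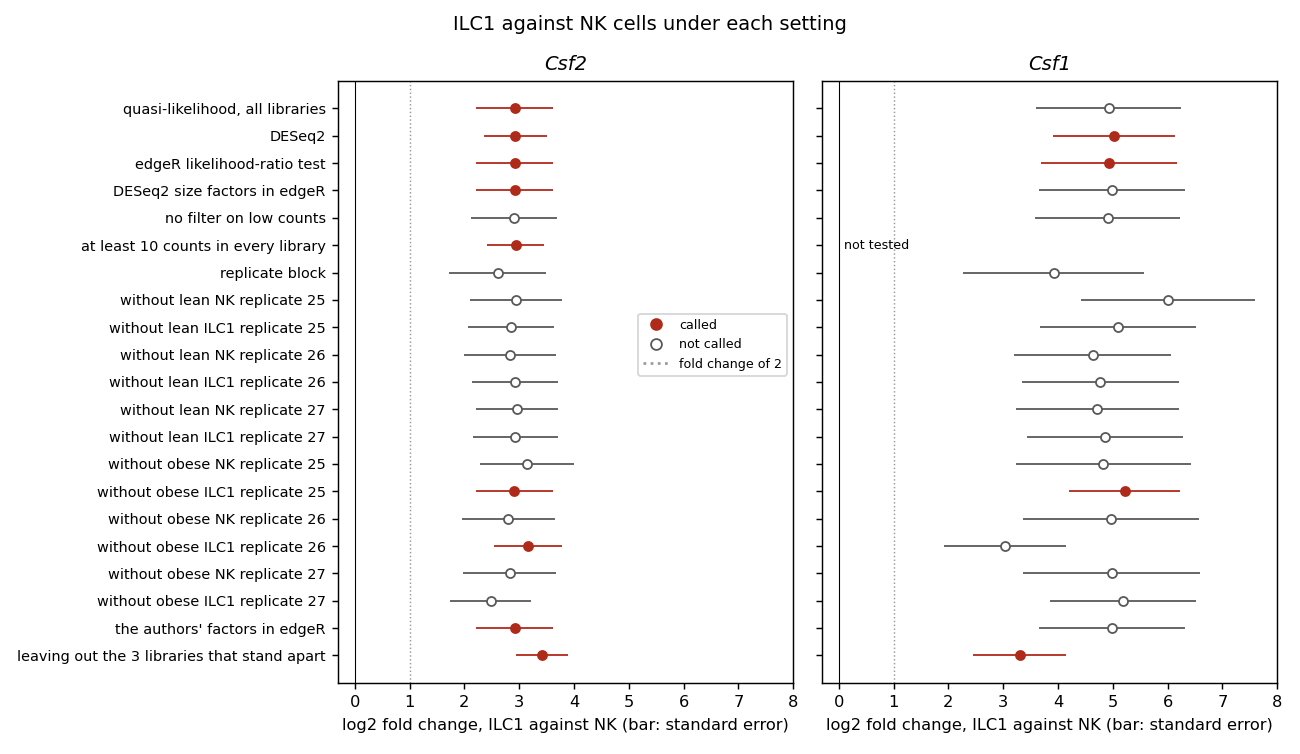
Log2 fold change of Csf2 and Csf1 in ILC1 against NK cells under each setting, with bars for the standard error; filled red points were called (adjusted p below 0.05 and fold change above 2) and open points were not. All values lie above 0, from 2.48 to 3.42 for Csf2 and from 3.03 to 6.01 for Csf1, which was not tested under the strictest filter.

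Csf1 encodes M-CSF and lies at chr3:107741048-107760469 on the minus strand. In lean NK cells its counts were 7, 0 and 1 in mice 25, 26 and 27, which were the same as normalized counts. Lean ILC1 held 35, 105 and 91 counts, or 36, 104 and 94 normalized counts, and so lay above all lean NK libraries, as did 13.6% of the genes tested (means 78.0 ± 36.7 and 2.67 ± 3.79, SD, n = 3 each; exact permutation test, two-sided, p = 0.1). In obese NK cells the counts were 5, 10 and 9, or 4, 7 and 7 normalized counts. Obese ILC1 held 1, 324 and 36 counts, which were 1, 568 and 26 normalized counts. ILC1 of obese mouse 25 were below every obese NK library, ILC1 of obese mouse 26 were above every other library, and the groups therefore overlapped (exact permutation test, n = 3 each, two-sided, p = 0.4).

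The fitted log2 fold change of Csf1 in ILC1 against NK cells was 4.93 (SE 1.32), which missed the threshold with edgeR's quasi-likelihood test (adjusted p = 0.0555) and passed it with DESeq2 (5.03, SE 1.11, adjusted p = 0.000153). Under DESeq2 3 of the 4 tested members were called in this comparison (Csf1, Csf2 and Csf2ra), against 8.16% of all genes. The size of the Csf1 value rested in part on 1 library: without ILC1 of obese mouse 26 it was 3.03 (SE 1.11, adjusted p = 0.140). Without ILC1 of obese mouse 25 it was called (adjusted p = 0.0120), as it was without the 3 libraries that stood apart (3.30, SE 0.84, adjusted p = 0.0233), and over all 19 alternatives the adjusted p ranged from 0.000153 to 0.400. In lean mice alone it was 4.89 (SE 1.88, adjusted p = 0.265) and in obese mice alone 4.96 (SE 1.86, adjusted p = 0.242), falling to 1.19 (SE 1.56) without ILC1 of obese mouse 26.

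Since Csf1 and Csf2 were the ligands detected, the 300 bases around their annotated RefSeq starts (GRCm38.p6, 250 before and 50 after, 5′ to 3′ on the gene's strand) are shown. They lie at chr3:107760420-107760719 and chr11:54249850-54250149, both on the minus strand. The window of Csf2 ends 183 bases upstream of the gene's start in the GENCODE annotation. Capitals mark a match to the kappaB motif, the binding motif of NF-kappaB factors.
Csf1: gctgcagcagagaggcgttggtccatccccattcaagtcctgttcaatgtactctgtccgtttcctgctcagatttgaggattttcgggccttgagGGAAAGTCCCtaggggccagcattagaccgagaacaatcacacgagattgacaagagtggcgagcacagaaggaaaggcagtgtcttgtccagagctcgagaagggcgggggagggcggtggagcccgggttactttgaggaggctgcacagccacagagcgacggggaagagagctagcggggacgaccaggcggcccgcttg
Csf2: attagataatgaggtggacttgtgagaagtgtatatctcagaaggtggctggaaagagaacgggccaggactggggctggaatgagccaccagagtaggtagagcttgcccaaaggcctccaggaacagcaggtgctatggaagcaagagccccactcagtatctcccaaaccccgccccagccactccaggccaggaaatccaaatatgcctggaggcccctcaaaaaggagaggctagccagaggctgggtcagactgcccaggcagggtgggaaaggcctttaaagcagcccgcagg
The window of Csf1 held 1 kappaB match, as did 8.46% of the 32851 mouse promoters of that length. Neither window held a match on either strand to the AP-1 motif TGANTCA (7.81% of promoters), the STAT motif TTCNNNGAA (8.30%), the CRE core TGACG (20.8%), the T-box core GGTGTGA (3.98%) or the E-box CACGTG (7.15%), and that of Csf2 held no kappaB match. These are matches of letters in a window, with no measure of binding. The window of Csf2 does not reach the GENCODE start, so the bases next to that start were not searched.

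Csf3, which encodes G-CSF, lies at chr11:98701263-98703629 on the plus strand. It had 0 counts in all 12 libraries. A count of 0 allows up to 1.06 to 1.80 CPM, depending on the library, for counting error only.

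Csf2ra encodes the alpha chain of the GM-CSF receptor and lies at chr19:61223957-61228429 on the minus strand. In lean NK cells its counts were 24, 10 and 0, or 22, 10 and 0 normalized counts. Lean ILC1 held 6, 69 and 25 counts, or 6, 68 and 26 normalized counts, a range that overlapped that of lean NK cells. In obese NK cells the counts were 33, 30 and 33, or 26, 20 and 25 normalized counts. Obese ILC1 held 23, 546 and 96 counts, or 28, 958 and 68 normalized counts, and lay above obese NK cells without overlap, as did 9.40% of the genes tested (means 351 ± 526 and 23.7 ± 3.21, SD, n = 3 each; exact permutation test, two-sided, p = 0.1). ILC1 of obese mouse 25 exceeded the highest obese NK library by 2 normalized counts only. The log2 fold change in ILC1 against NK cells was 2.70 (SE 1.10, adjusted p = 0.206), and 1.30 (SE 1.07, adjusted p = 0.582) without ILC1 of obese mouse 26. Of all Csf2ra counts, 61.0% came from that library.

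Csf2rb encodes the beta chain shared by the receptors for GM-CSF, IL-3 and IL-5, and lies at chr15:78325752-78353847 on the plus strand. Lean NK cells held 13, 0 and 0 counts and obese NK cells 3, 0 and 0. The gene was at 0 in all 3 lean ILC1 libraries, and obese ILC1 held 0, 979 and 31 counts, or 0, 1718 and 22 normalized counts. The gene was thus found in 4 of 12 libraries, and 95.4% of all Csf2rb counts came from ILC1 of obese mouse 26. The log2 fold change in ILC1 against NK cells was 2.04 (edgeR's quasi-likelihood test, adjusted p = 0.988), and it was -0.80 without that library. The SE derived for the 2.04 was 22.2, which is no usable measure of spread because the test statistic was near 0.

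Csf2rb2, its near copy, lies at chr15:78282507-78305721 on the minus strand. It held 183 counts (321 normalized counts) in ILC1 of obese mouse 26, 3 counts in obese NK cells of mouse 25 and 0 in the other 10 libraries, and did not pass the filter. The coding sequences of the pair were identical at 95.2% of 2628 aligned bases in the GENCODE annotation, with a longest identical run of 242 bases. Exact windows of 50 bases shared by the pair made up 26.2% of those in Csf2rb and 26.6% of those in Csf2rb2, and for 75 bases the shares were 15.8% and 16.1%. How reads from such windows were assigned is not given in the sources used here, and the split between these 2 genes is therefore uncertain. Shown first is a run of 120 coding bases that is the same in both, which lies in exon 14 of each (chr15:78348577-78348696 on the plus strand and chr15:78284752-78284871 on the minus strand).
Csf2rb and Csf2rb2: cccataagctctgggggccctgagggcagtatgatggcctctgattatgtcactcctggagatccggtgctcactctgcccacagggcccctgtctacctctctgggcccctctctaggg
The least alike run of 120 bases, spliced across exons 4 and 5 (within chr15:78338910-78340483 on the plus strand for Csf2rb and chr15:78292826-78294421 on the minus strand for Csf2rb2), matched at 98 bases, and capitals mark the 22 that differ.
Csf2rb: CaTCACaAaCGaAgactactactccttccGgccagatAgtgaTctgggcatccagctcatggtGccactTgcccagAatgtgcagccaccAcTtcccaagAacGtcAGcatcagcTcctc
Csf2rb2: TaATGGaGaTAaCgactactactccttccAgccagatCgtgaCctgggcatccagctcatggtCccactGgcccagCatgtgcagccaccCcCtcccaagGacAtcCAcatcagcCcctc
A read from the first run fits both genes equally, whereas a read from the other tells them apart.

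Csf3r encodes the G-CSF receptor, a marker of neutrophils, and lies at chr4:126024550-126044440 on the plus strand. It held 1700 counts (2983 normalized counts) in ILC1 of obese mouse 26, 22 and 1 counts in obese NK cells of mice 25 and 26, and 0 in the other 9 libraries. That 1 library held 98.7% of all Csf3r counts, and the gene did not pass the filter.

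The receptor transcripts and Csf1 were thus concentrated in ILC1 of obese mouse 26, while Csf2 was not. That library held 51.9% of all Csf1 counts, 61.0% of Csf2ra, 95.4% of Csf2rb, 98.4% of Csf2rb2 and 98.7% of Csf3r, but 1.29% of Csf2. Csf2 was itself unevenly spread, with 377 of its 775 counts in ILC1 of obese mouse 27. Over all tested genes, ILC1 of obese mouse 26 had the highest normalized count for 20.4%. This was close to the 18.6% of ILC1 of obese mouse 25 and the 18.0% of NK cells of lean mouse 27. ILC1 of obese mouse 26 also held transcripts of other liver cells. Macrophage and Kupffer cell markers took 1.38% of its counts (9 of 10 genes highest there), against at most 0.107% in the other 11 libraries. Neutrophil markers took 0.240% (6 of 6 genes highest there), against at most 0.00147%, and all 6 were at 0 in the 3 lean ILC1 libraries. Hepatocyte markers took 9.85% (10 of 10), against at most 0.0607%.

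Dendritic cell markers took 0.261% (6 of 6), against at most 0.182%, B cell markers 0.647% (7 of 7) against at most 0.0222%, endothelial markers 0.648% (5 of 5) against at most 0.0109%, and stellate cell markers 0.0106% (5 of 5) against at most 0.00325%. The 2 ILC1 markers took 0.222% there, the lowest share of any ILC1 library. A list of 3 mast cell and basophil genes took 0.275 to 0.468% in NK cells and 0.00646 to 0.0396% in ILC1, with 0.0159% in ILC1 of obese mouse 26. In NK cells this share was mostly Cma1, which was called lower in ILC1, while the other 2 genes, Cpa3 and Cd200r3, had their highest value in ILC1 of obese mouse 26. In the other 2 obese ILC1 libraries, of mice 25 and 27, macrophage markers took 0.0953 and 0.107%, against 0.00920 to 0.0219% in lean ILC1. Only 4 of the 10 genes had counts in ILC1 of obese mouse 25, and 9 in ILC1 of obese mouse 27, against 6 to 8 in lean ILC1. The part of these transcripts in the values of the receptors and of Csf1 was not tested. Without ILC1 of obese mouse 26, the mean of the 2 remaining obese ILC1 libraries was 13.5 normalized counts for Csf1, 48.0 for Csf2ra and 11.0 for Csf2rb, and 204 for Csf2, which was thus higher without it.

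**Figure D4:**
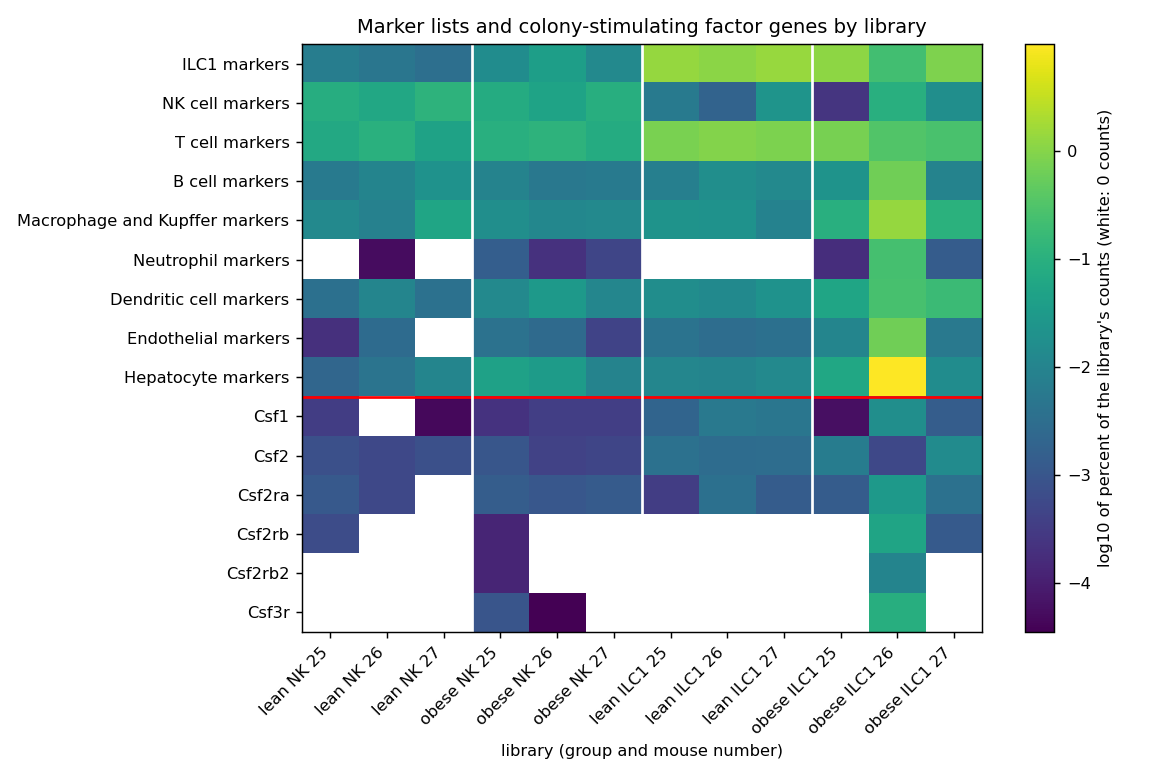
Share of each library's counts (log10 of percent, white for 0 counts) taken by 9 lists of marker genes, above the red line, and by 6 of the 7 genes, below it; Csf3 had no counts. The column of ILC1 from obese mouse 26 is brightest for hepatocyte (9.85%), macrophage (1.38%), B cell, endothelial and neutrophil markers and for Csf2rb, Csf2rb2 and Csf3r, but not for Csf2.

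The second question the design posed was whether the diet changed these genes. No member was called between obese and lean mice in NK cells or in ILC1, nor in the difference of the diet effect between them, by edgeR's quasi-likelihood test, by its likelihood-ratio test or by DESeq2. At an unadjusted p below 0.05 there were 0, 1 and 1 of the 4 tested members in these 3 comparisons, in both cases Csf2rb, of whose counts 95.4% lay in ILC1 of obese mouse 26. Over all genes, the quasi-likelihood test called 0% in each, with 31, 277 and 155 genes below an unadjusted p of 0.05. DESeq2 called 8, 77 and 21 genes.

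For Csf2 the log2 fold change in obese against lean mice was -0.14 (SE 0.94, adjusted p = 1) in NK cells and 1.17 (SE 0.94, adjusted p = 0.748) in ILC1, and the difference between these was 1.32 (SE 1.33, adjusted p = 0.996). For Csf1 it was 1.18 (SE 1.68, adjusted p = 1) in NK cells and 1.26 (SE 1.59, adjusted p = 0.874) in ILC1. The Csf1 value in ILC1 turned to -2.51 without ILC1 of obese mouse 26. For Csf2ra it was 1.12 (SE 1.49, adjusted p = 1) in NK cells and 3.30 (SE 1.58, adjusted p = 0.492) in ILC1, where it was 0.53 (SE 1.58, adjusted p = 0.933) without ILC1 of obese mouse 26. Standard errors of about 0.94 and more on the log2 scale mean that changes of several-fold could not be told from none with 3 mice per diet.

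Levels can be compared between genes per kilobase of annotated exon. In lean ILC1, Csf2 was the highest at 78.3 ± 9.21 normalized counts per kilobase, followed by Csf1 at 14.8 ± 6.95 and Csf2ra at 11.6 ± 11.0 (SD, n = 3), and Csf1 and Csf2ra did not differ beyond their spread. The other 4 genes were at 0. In lean NK cells Csf2 was again highest at 16.3 ± 3.31, before Csf2ra at 3.72 ± 3.84, Csf2rb at 0.550 ± 0.952 and Csf1 at 0.505 ± 0.717, of which the last 3 overlapped. Obese NK cells had the order Csf2 (14.6 ± 6.88), Csf2ra (8.24 ± 1.12), Csf3r (1.66 ± 2.64), Csf1 (1.14 ± 0.328), Csf2rb2 (0.141 ± 0.244) and Csf2rb (0.0916 ± 0.159). Here Csf2 and Csf2ra did not differ beyond their spread, nor did Csf2rb2 and Csf2rb. Csf3r did not differ beyond its spread from Csf1, Csf2rb2 or Csf2rb. In obese ILC1 the SD exceeded the mean for every detected gene except Csf2 (178 ± 156), so no order is given.

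Other genes around these cytokines were read from lists. Among 8 cytokines and receptor chains of the same superfamily, 3 were tested and 0 were called in any of the 6 comparisons by edgeR's quasi-likelihood test. Crlf3 was at 1450 ± 452 normalized counts in lean NK, 1439 ± 105 in obese NK, 1051 ± 19.7 in lean ILC1 and 1239 ± 129 in obese ILC1 (SD, n = 3 each). The 3 had a median log2 fold change of -0.36 in ILC1 against NK cells, where all tested genes had a median of 0.036.

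Among 17 genes of signaling below the receptors, 15 were tested, and 1 rose and 0 fell in ILC1 against NK cells, where 3.15% of all genes were called higher and 4.34% either way (median log2 fold change -0.25). The gene that rose was Cish, which encodes CIS, a STAT5-induced inhibitor of cytokine signaling. Its normalized counts were 99.7 ± 60.2 in lean NK, 99.3 ± 16.0 in obese NK, 650 ± 123 in lean ILC1 and 351 ± 74.3 in obese ILC1 (SD, n = 3 each). The ILC1 and the NK ranges did not overlap (268 to 786 against 51 to 167). Within lean mice 13.6% of the genes tested were likewise higher in every ILC1 than in every NK library, and within obese mice 9.40%. The log2 fold change was 2.25 (SE 0.34, adjusted p = 0.00256). Cish was also called in lean mice alone. In obese mice the cyclin gene Ccnd3 fell in ILC1 against NK cells by 1.06 on the log2 scale (SE 0.19, adjusted p = 0.0289), where 0.921% of all genes were called.

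All 6 transcription factors linked to Csf2 in lymphocytes were tested, and 0 were called between ILC1 and NK cells over both diets (median log2 fold change -0.53). Bhlhe40, which T cells need for GM-CSF production, was at 8507 ± 1965 normalized counts in lean NK, 8199 ± 1235 in obese NK, 6004 ± 726 in lean ILC1 and 3814 ± 610 in obese ILC1. It was lower in ILC1 with a log2 fold change of -0.82 (SE 0.15, adjusted p = 0.00822), less than the 2-fold that a call required, and it fell by 1.16 in obese mice (SE 0.21, adjusted p = 0.0289), where it was called. Thus Bhlhe40 had the opposite sign to Csf2 in these comparisons, while Batf had the same sign but was not called. The log2 fold change of Batf was 0.86 (SE 0.26) over both diets and 1.09 (SE 0.36) in obese mice. Over both diets Cebpb was also above 0 (0.40, SE 0.94). Bach2 (-0.24, SE 0.56), Creb1 (-0.86, SE 0.67) and Crem (-1.21, SE 0.86) were below it. The part of any of these factors in the Csf2 difference was not tested.

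Of 8 other secreted factors of activated NK cells and ILC1, 7 were tested, and 2 rose and 0 fell in ILC1, against 3.15% of all genes called higher (median log2 fold change 1.45). The list took 6.18 to 7.76% of counts in lean NK, 5.42 to 5.79% in obese NK, 4.83 to 5.07% in lean ILC1 and 0.731 to 4.67% in obese ILC1. Ccl1, a chemokine, had a log2 fold change of 7.51 (SE 0.90, adjusted p = 0.000591) and was called in each diet, with counts of 0 to 1 in lean NK, 7 to 19 in obese NK, 40 to 199 in lean ILC1 and 76 to 1295 in obese ILC1. Cd40lg, the ligand of CD40, had 8.34 (SE 1.70, adjusted p = 0.0234), with counts of 0 in lean NK, 0 to 7 in obese NK, 101 to 211 in lean ILC1 and 1 to 194 in obese ILC1. The most abundant of the list, the chemokine Ccl5, was at 90595 ± 19155 normalized counts in lean NK and 62172 ± 5588 in lean ILC1 and was not called (adjusted p = 0.187). The chemokine Ccl3 was lower in ILC1 with a log2 fold change of -0.87 (SE 0.19, adjusted p = 0.0200), less than the 2-fold that a call required. Of 2 genes beside the members in the genome, Acsl6 had 0 counts in all libraries and Ahcyl1 was not called in any comparison.

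The genes most like each member across the 12 libraries were found by the root mean square difference of log2 CPM, each gene centered on its mean. For Csf2 they were Cd7 (0.777), Cd160 (0.790) and Cd226 (0.827), surface molecules of NK and T cells, where the median over tested genes was 1.95. For Csf1 they were Cpne2 (0.855), Ciita (0.977) and Abca3 (1.16), with a median of 2.49. For Csf2ra they were Cd302 (0.969), Cdo1 (1.06) and Ccr3 (1.14), with a median of 2.14, and for Csf2rb Clec1b (1.08), Cd300a (1.27) and Ctss (1.33), with a median of 2.91. The 9 genes named for Csf1, Csf2ra and Csf2rb all had their highest normalized count in ILC1 of obese mouse 26, whereas those named for Csf2 had it in ILC1 of obese mouse 25 or lean mouse 25.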

How the data were processed

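RNA was extracted from sorted liver NK cells and ILC1 of 3 lean and 3 obese mice, and libraries were made from 2 ng with a NEBNext low input kit. The submitters' processing notes name bcl2fastq 2.19, Trimmomatic 0.36.5, STAR 2.5.2b, featureCounts 1.6.0.2 and mm10, with no role or order. The annotation, read length, strand setting and treatment of reads that fit several genes are not given in the sources used here. The deposited table held raw counts per gene and normalized counts, a score that the authors had made by dividing counts by a factor per library and rounding. It also held the authors' fold changes and p-values, which were not used. The rows used ran alphabetically by symbol to Cyp26b1 (5545 complete rows, and 1 incomplete row was left out), so library totals cover these rows and not whole libraries.

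Counts were tested with edgeR 4.0.16 in R 4.3.3 (TMM factors, filterByExpr, quasi-likelihood test, 4 groups in 1 model), with Benjamini-Hochberg adjustment over 2606 genes; this filter kept 4 of the 7 members. The ILC1 against NK comparison averages the lean and obese differences. Single values were compared by exact permutation tests in Python 3.11.15 (scipy 1.17.1). The script for the fit was tested on simulated data. DESeq2 1.42.0 and other settings were alternatives, among them the authors' factors and leaving out 3 libraries, both chosen after seeing the data. Members and lists were chosen with earlier results of these data known. The genes named were all 7 members and, from the lists, genes called and those with the highest mean normalized counts. Likeness used a prior count of 2.

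Libraries that share a number and a diet are from 1 mouse, as the series' design states that both cell types were isolated from each animal. The same-mouse correlation of deviations from group means was -0.0133, 0.102 and 0.0556 in lean mice and -0.0763, -0.0531 and 0.141 in obese mice. Libraries of a group differed beyond sampling noise. Preparation batches are not given in the sources used here. Coordinates are from GENCODE M21 (GRCm38) and promoters from RefSeq (GRCm38.p6), matched by symbol (5 of 7 members had a promoter entry). Intervals cover counting error only.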

Additional observations from a re-analysis of the deposited data

How the results depend on the processing

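The counts behind these results were low, at 775 reads for Csf2 and 624 for Csf1 over 12 libraries, and 3 mice per diet limit what can be called. The Csf2 and Csf1 differences between ILC1 and NK cells kept their sign in all alternatives, over both diets and in each. Of 466 alternative values of members' fold changes, 424 kept their direction and side of the threshold, 12 lost and 14 gained a call, and 16 changed sign. Group means of the members in obese ILC1 turned on 1 library: without ILC1 of obese mouse 26 they went from 198 to 13.5 normalized counts for Csf1, from 351 to 48.0 for Csf2ra, from 580 to 11.0 for Csf2rb, from 994 to 0 for Csf3r and from 142 to 204 for Csf2.

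Genes called numbered 113 between ILC1 and NK cells, 60 in lean mice, 24 in obese mice and 0 in the comparisons of diet. In that order (both diets, lean, obese, obese against lean NK, obese against lean ILC1, difference of diet effects), DESeq2 called 222, 151, 154, 8, 77 and 21 genes, edgeR's likelihood-ratio test 232, 122, 122, 2, 57 and 9, and the fit without the 3 libraries that stood apart 245, 219, 154, 5, 28 and 18. At least 10 counts in every library gave 62 over both diets and 61 in obese mice, the replicate block with the mouse as term gave 46, 21 and 0, and the compared libraries alone gave 0 in obese mice. Leaving out 1 library gave 63 to 161, 29 to 102, 5 to 66, 0 to 1, 0 to 6 and 0 to 1.

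Members called between ILC1 and NK cells were 1 over both diets, where 4.34% of all genes were called. They were 3 with DESeq2 (8.16% of all genes), 2 with the likelihood-ratio test and 0 with no filter on low counts (Csf2 at an adjusted p of 0.0723). With the replicate block they were 0 (1.77%), without the 3 libraries 2 (8.31%) and leaving out 1 library 0 to 2. In lean mice they were 0 (2.30% of all genes called), against 1 with DESeq2 (5.55%) and 2 without the 3 libraries. In obese mice they were 0 (0.921% of all genes called), against 2 with DESeq2 (5.99%), 1 with the likelihood-ratio test and 1 with at least 10 counts in every library. Without the 3 libraries it was 1, and leaving out 1 library gave 0 to 1. The numbers of all genes called under most of the other settings stand in the paragraph above. The block changed no other member's call.

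These log2 fold changes of members changed sign, none being called either way. Csf2rb in ILC1 against NK cells (2.04) ranged from -0.80, without ILC1 of obese mouse 26, to 4.63 leaving out 1 library and was -0.61 without the 3 libraries. In lean mice alone (-5.18) it ranged from -5.76 to 0, the latter without NK cells of lean mouse 25, and in obese against lean NK cells (-2.25) from -5.17 to 2.94, the latter without the same library. Csf2 in obese against lean NK cells (-0.14) ranged from -0.61 to 0.076, and was above 0 without NK cells of obese mouse 26 or 27 (0.0033). Csf1 in obese against lean ILC1 (1.26) ranged from -2.51, without ILC1 of obese mouse 26, to 1.83, and was -1.59 without the 3 libraries. The difference of diet effects for Csf1 (0.073) was -3.45 with the replicate block, -2.41 without the 3 libraries and -3.69 to 0.66 leaving out 1 library, below 0 without NK cells of lean mouse 25, ILC1 of lean mouse 25, NK cells of obese mouse 25 or ILC1 of obese mouse 26. For Csf2ra (2.18) it was -0.21 with the block and -0.59, without ILC1 of obese mouse 26, to 3.25 leaving out 1 library. The cause was not tested.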
